A study of Mus musculus with 9 samples.

Results

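The regions described here are short stretches of the mouse genome that carried the histone mark H3K27me3 in every library of a study of blood stem and progenitor cells. They are the merged regions on chromosomes 1 to 19 with a width of 8000 bp or less, counted with both ends, in which each of the 8 libraries has a called interval. There were 786 of them, which is 12.4% of the 6336 autosomal regions called in all 8 libraries and 4.96% of the 15836 autosomal regions in the deposited merged list (18556 regions over all chromosomes). The rule used the interval calls and the width, so the presence of a region in every group and its short width are not findings.

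The cells were lineage-negative, c-Kit-positive bone marrow cells enriched with beads from transplanted female mice and fixed without culture. Wild-type cells (WT) carried Dnmt3a+/+ and mutant cells (RH) the heterozygous Dnmt3a fl-R878H/+ allele. Both genotypes came from crosses with Mx1-cre mice, in which Cre is driven by the promoter of the interferon-responsive gene Mx1, so the controls carry the transgene too. Mice of each genotype were given vehicle (VEH) or metformin (MET), the diabetes drug, for 1 month, which makes 4 groups of 2 libraries. The labels do not say whether the libraries of a group came from separate mice, so the spread between them may be technical. A chromatin profile of such a mixed population does not show which of its cells carry the mark.

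H3K27me3 is trimethylation of lysine 27 of histone H3, placed by Polycomb repressive complex 2. It is known for marking silent developmental genes, usually at promoters rich in CG dinucleotides, and Polycomb repressive complex 1 can bind to it. In blood progenitors, broad domains of the mark cover genes of other lineages. Dnmt3a is a DNA methyltransferase, and mutations at the altered residue recur in human clonal haematopoiesis and leukaemia.

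Promoters of members with tall summits are shown to let the base composition be seen. They are the 3 tallest members at a protein-coding gene whose listed start has the 250 bases before it outside every protein-coding gene span. The sequences are from RefSeq (GRCm38.p6), 5′ to 3′ on the strand of the gene, with each CG in capitals.
Lrrc73: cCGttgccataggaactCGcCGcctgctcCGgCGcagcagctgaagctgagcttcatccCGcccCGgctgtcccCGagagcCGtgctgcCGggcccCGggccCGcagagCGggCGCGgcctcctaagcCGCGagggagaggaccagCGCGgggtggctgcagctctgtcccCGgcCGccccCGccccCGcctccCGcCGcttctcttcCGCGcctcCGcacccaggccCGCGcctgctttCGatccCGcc
Phlpp1: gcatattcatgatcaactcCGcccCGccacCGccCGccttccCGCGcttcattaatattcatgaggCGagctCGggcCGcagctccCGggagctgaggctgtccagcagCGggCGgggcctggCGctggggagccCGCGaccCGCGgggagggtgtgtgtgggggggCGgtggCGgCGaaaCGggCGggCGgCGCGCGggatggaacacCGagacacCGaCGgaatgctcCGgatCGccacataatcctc
Bmi1: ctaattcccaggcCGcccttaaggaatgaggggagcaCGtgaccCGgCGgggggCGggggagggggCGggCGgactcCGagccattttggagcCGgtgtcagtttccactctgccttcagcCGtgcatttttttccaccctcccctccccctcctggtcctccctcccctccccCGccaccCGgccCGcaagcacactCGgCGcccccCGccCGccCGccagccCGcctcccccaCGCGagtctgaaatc
The Lrrc73 sequence lies at chr17:46253915-46254164 on the plus strand and holds 32 CG. The Phlpp1 sequence lies at chr1:106171619-106171868 on the plus strand and holds 31 CG. The Bmi1 sequence lies at chr2:18676768-18677017 on the plus strand and holds 21 CG. G and C made up 76.4% of the Lrrc73 and 70.4% of the Bmi1 sequence.

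The members lay mostly at genes. A listed start of a protein-coding gene fell inside 395 of the 786 members (50.3%). Another 164 members (20.9%) overlapped a protein-coding gene that has no listed start in the table used, and 80 (10.2%) lay inside a protein-coding gene away from its listed starts. Genes of other types alone were overlapped by 48 members (6.11%), and 99 members (12.6%) lay outside all listed genes. Wider regions called in every library held a listed coding start in 3069 of 5550 cases (55.3%). Among narrow regions called in 1 to 7 libraries, 731 of 6144 (11.9%) held one, and 2463 (40.1%) lay outside all genes. The share of members with a listed coding start was near that of the wider shared regions. Most narrow regions called in fewer libraries lay away from starts. Outside all listed genes lay 12.6% of the members and 7.68% of the wider shared regions. At genes of other types alone lay 6.11% and 9.75%. A longer region has more room to hold a start. The median width was 6800 bp in the members and 17800 bp in the wider shared regions. It was 4400 bp in the narrow regions called in 1 to 7 libraries. The shares were not adjusted for width, so they do not show whether the sets differ in position apart from it. These shares are descriptions of regions chosen by their calls and carry no test.

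**Figure D1:**
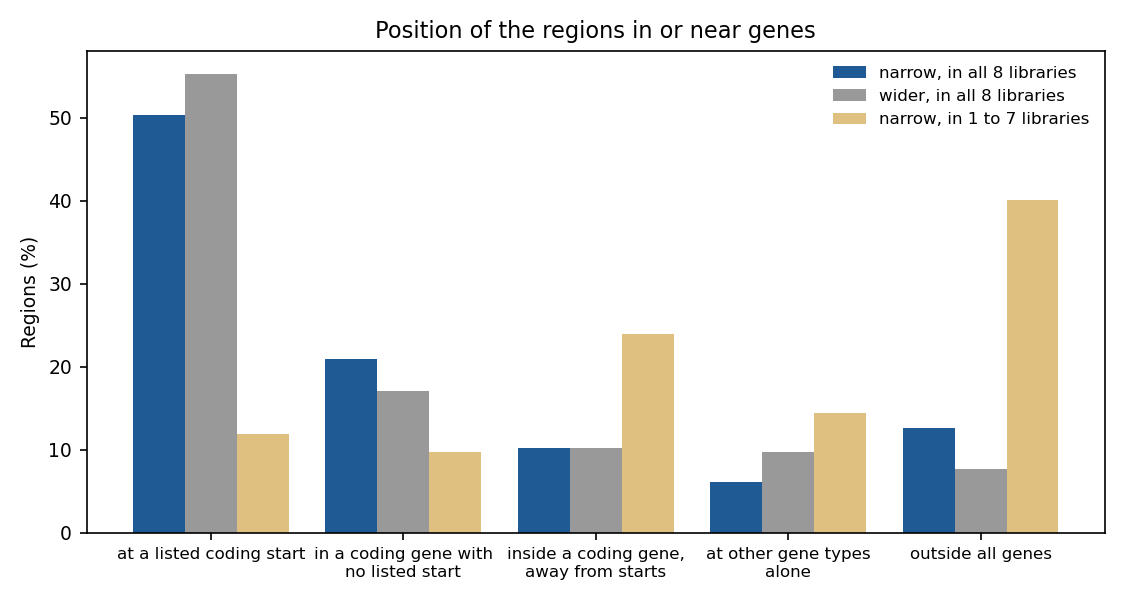
Share of regions (vertical axis, %) in 5 classes of position, for the 786 narrow regions called in all 8 libraries, the 5550 wider regions called in all 8 and the 6144 narrow regions called in 1 to 7 libraries. Listed coding starts fell in 50.3%, 55.3% and 11.9% of the 3 sets.

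The members lay far from other marked regions. The median gap from a member to the nearest other merged region was 60.9 kb, against 9.20 kb for the wider shared regions and 13.4 kb for the narrow regions called in 1 to 7 libraries. Another region lay within 5 kb of 12.6%, 37.9% and 30.8% of them, respectively. A gap depends on where intervals were joined into regions, which the sources used here do not describe.

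In members with a listed coding start, the summit lay mostly just downstream of it. Such members were taken because the start lies inside a region of 8000 bp or less, which bounds the distance to the summit. Closeness to the start is therefore partly set by the choice, and other sets of regions were not measured. For the 329 members with a single listed coding start, the summit, taken as the median over the 8 libraries, lay a median of 299 bp downstream of the start. It lay downstream in 272 of them (82.7%) and within 1000 bp of the start in 299 (90.9%). The library medians ranged from 257 bp (RH VEH 2) to 343 bp (WT VEH 2) downstream, and the groups overlapped. The region itself reached a median of 2846 bp upstream and 3645 bp downstream of the start, and 227 of the 329 reached farther downstream.

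**Figure D2:**
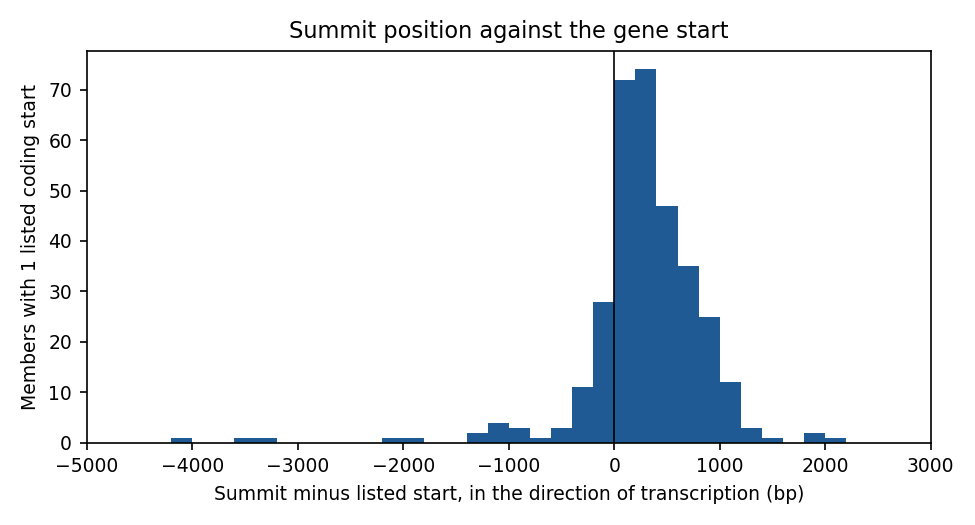
Number of members (vertical axis) by the distance in bp from the listed start to the summit, positive in the direction of transcription, for the 329 members with 1 listed coding start and taking the median over 8 libraries. Most bars lie just to the right of 0, and 272 members are downstream.

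The genes with a start in a member were long. The 405 such genes had a median span of 96.5 kb, and 196 of them (48.4%) spanned more than 100 kb. The 3653 genes with a start in a wider shared region had a median span of 23.1 kb (17.1% over 100 kb), and all 16457 listed autosomal coding genes 17.3 kb (10.8% over 100 kb). The 746 genes with a start in a narrow region called in 1 to 7 libraries lay between, at 33.9 kb (24.5% over 100 kb). By base composition the promoters of members and wider regions were alike: 58.0% and 56.2% had a GC share of at least 50% and an observed-to-expected CG ratio of at least 0.6 over the listed window around the start, against 47.2% of all listed genes. The letters TATAAA, searched on the strand of the gene only, occurred in 3.70% of member promoters, 5.91% of those of wider regions and 9.08% of all listed promoters.

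Genes were sorted by symbol into 8 groups, so a group holds names and not tested functions. Ion channel genes made up 20 of the 405 member genes (4.94%), against 2.52% of the genes at wider regions and 1.08% of all listed genes. They include Kcnd2 (a voltage-gated potassium channel), Glrb (the glycine receptor beta subunit), Chrna7 (a nicotinic acetylcholine receptor subunit) and several GABA receptor subunits (Gabra2, Gabra4, Gabrb1, Gabrg3). Adhesion and matrix genes were 19 (4.69%, against 2.98% and 1.59%). Among them were the cadherin Cdh24, the claudin Cldn10 and the synaptic adhesion genes Nrxn3 and Nlgn1. The symbol rule also took in Lrrc3b, Lrrc7, Lrrc73, Lrrfip1, Lrrn1 and Lrrtm1 through the prefix Lrr. Whether these act in adhesion was not checked. G-protein-coupled and frizzled receptors were 16 (3.95%, against 2.24% and 1.03%), among them the adhesion receptors Adgra3 and Adgrg6, the lysophosphatidic acid receptor Lpar1 and the somatostatin receptor Sstr4.

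Homeobox genes, the classical Polycomb targets, were nearly missing from the members. The only one was Satb1, a chromatin organiser of lymphoid cells. Homeobox genes made up 0.247% of the member genes, against 3.09% of the genes at wider regions and 0.760% of all listed genes. Of the 125 listed homeobox genes, 113 had a start in a wider shared region. Their shortage among the members therefore cannot be told apart from the width limit. Cytokines, chemokines and their receptors had 0 of 405 genes, against 0.931% at wider regions. Other transcription factors were 15 (3.70%, against 4.79% at wider regions and 3.54% of all listed genes), of which many are zinc finger genes (Zfp37, Zfp872, Zfp607b) and one is the retinoic acid receptor Rarb. Genes with symbols of secreted signal families were 5 (1.23%, against 2.35% and 0.656%): Edn2, Fgf12, Pdgfc, Sema3d and Vegfc. Whether each product is secreted was not checked. Solute carriers were 9 (2.22%, against 2.63% and 1.79%), with Slc22a3, an organic cation transporter, among them.

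**Figure D3:**
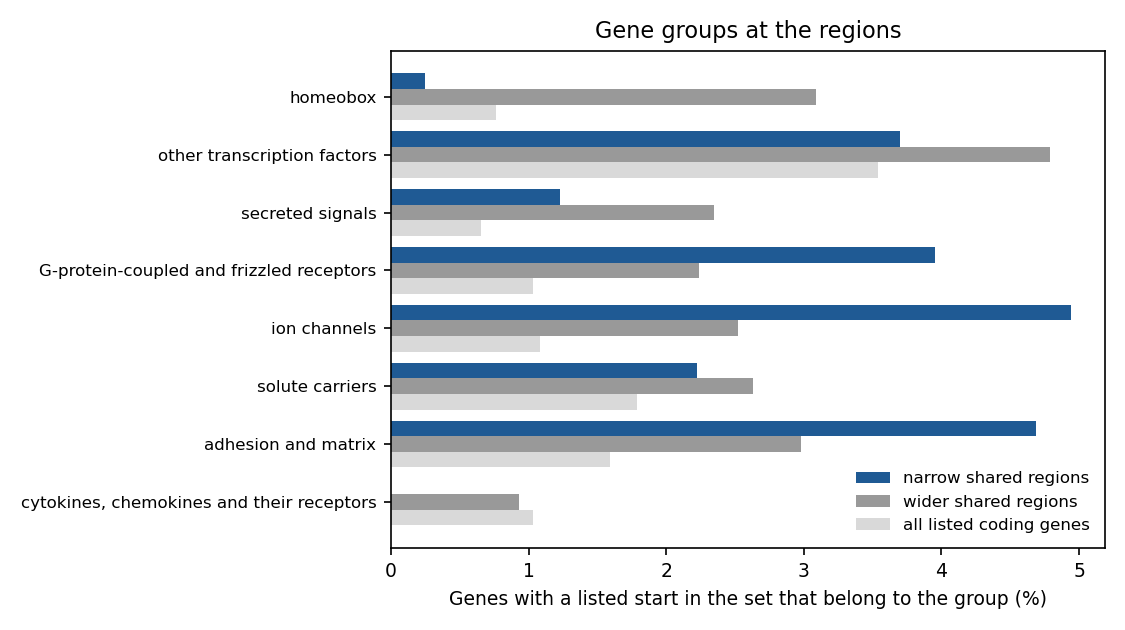
Share of genes with a listed start (horizontal axis, %) that belong to each of 8 groups formed by gene symbol, for the narrow shared regions (405 genes), the wider shared regions (3653) and all listed autosomal coding genes (16457). Ion channels reach 4.94% at the narrow shared regions, and homeobox genes 0.247%.

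Few marker genes of blood and other cell types were at a member, but few genes of any kind were. Of the 16457 listed autosomal coding genes, 405 had a start in a member. Marker genes were counted by their whole span, so the measures differ, and the low count is not read as a trait of the members. Of the 10 marker lists, members touched only the B-cell list, at Ebf1 (a B-lineage transcription factor, in its gene body), and the stromal list, at the start of Col1a2 (a type I collagen chain). None of the 12 progenitor markers had a member, although 4 had a region in every library. Wide domains called in all libraries covered Hoxd11 (213800 bp), Pax6 (56800 bp), Gata4 (120000 bp) and Cdkn2a (52400 bp), while the active genes Actb and Gapdh had no region.

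Library heights set the scale of what follows. The authors' summit height is a whole number with no stated unit, so heights are described and ranked but not tested. The libraries held 11620 (RH VEH 1) to 16879 (RH MET 1) intervals. The median height of the members was 19.0 and 24.0 in WT VEH, 26.0 and 29.0 in WT MET, 13.0 and 19.0 in RH VEH, and 25.0 and 23.0 in RH MET. RH VEH 1 was lowest, and the vehicle libraries tended to be lower than the metformin libraries. The wider shared regions moved in the same way: their median height was 1.46 to 1.54 times that of the members in every library. A wider region offers more sequence for its highest summit, so this ratio is not separate from the width limit.

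**Figure D4:**
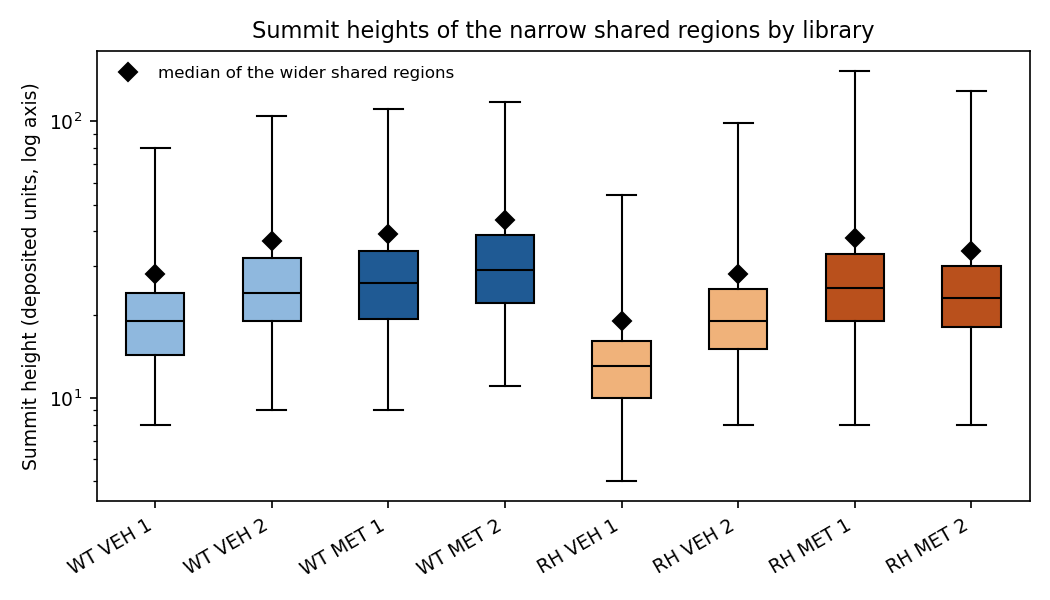
Summit heights of the 786 members (vertical axis, deposited units, log scale) by library; boxes span the quartiles, the line is the median, whiskers reach the lowest and highest member, and diamonds are the medians of the wider shared regions. RH VEH 1 has the lowest median (13.0) and WT MET 2 the highest (29.0), and each diamond lies above the member median of its library.

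Ranked within each library among the 6336 shared regions, the members were low and the groups lay close together. The highest summit of a region was taken, over less sequence in a member than in a wider region. The low rank therefore cannot be told apart from the width limit. The median height percentile of the members was 33.6 ± 0.508 in WT VEH, 33.9 ± 0.519 in WT MET, 32.8 ± 0.530 in RH VEH and 33.5 ± 0.268 in RH MET (SD, n = 2 in each). The 4 means lay between 32.8 and 33.9 and were not tested. A range of 4 means and an SD of 2 libraries are unlike measures. Setting one against the other does not show whether the groups differ. Ranked by the summit nearest to the middle of each region, the 4 means lay between 38.8 and 40.6. For single members the median SD within a group was 7.76 percentile points and the median range of the 4 group means 12 points. These are unlike measures too, and the range is not read as a group difference.

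The width limit itself bounds the number of intervals and the distance between summits in a member, so the following values only describe the members. In 773 of them every library had 1 interval, and the summits of the 8 libraries lay within 1000 bp of each other in 558. The stretch covered by all 8 libraries had a median of 2600 bp, or 40.0% of the region, and 2 members had no base in common. At the width limit, the 72 members of 8000 bp had a median height percentile of 38.5 and the 72 regions of 8200 bp one of 35.1. Of the 72 regions of 8200 bp, the first 3 by position were near Mettl21e (percentile 33.9) and at Esrrg (26.0) and Slc18b1 (37.3).

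Few members were tall. A median percentile of 50 or more was reached by 139 members and of 90 or more by 4. The tallest at a coding gene was Hspa2, a heat shock protein of the HSP70 family, at chr12:76401401-76409400, with a median percentile of 97.5. Its heights were 68 and 105 in WT VEH, 111 and 111 in WT MET, 45 and 80 in RH VEH, and 110 and 82 in RH MET. The groups overlapped at Hspa2, and the low values were those of the low libraries.

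Lrrc73, a leucine-rich repeat gene at chr17:46251201-46257800, followed with a median percentile of 96.2. Its heights were 80 and 87 in WT VEH, 101 and 118 in WT MET, 43 and 63 in RH VEH, and 90 and 87 in RH MET. Samd11, a sterile alpha motif gene, had a region of only 2000 bp at chr4:156254201-156256200 and a median percentile of 93.0, with heights of 36 to 96. Phlpp1, a phosphatase that acts on the kinase Akt, had a percentile of 89.6, Bcr (known from the BCR-ABL fusion) 79.5, and Perm1, a regulator of muscle metabolism, 80.5.

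The shortest members at a coding gene sat at the low end of the ranking. The member at the start of Nsmce3, a subunit of the SMC5/6 complex, had a median percentile of 1.07. Its heights were 8 and 9 in WT VEH and 12 and 12 in WT MET. In RH VEH they were 7 and 11, and in RH MET 11 and 10. The summits lay at -5521 to -2417 bp from the Nsmce3 start (negative is upstream), and the member also overlapped Fam189a1. Capn13, a calpain protease gene, had a median percentile of 1.31, Tead4, a factor of the Hippo pathway, 1.95, and Ido1, an enzyme of tryptophan breakdown, 2.63. Qrich2 and Foxp2, a forkhead factor, both had 2.76. The lowest height of any member was 5 to 11 across the libraries, so these members lie close to the bottom of the range and small steps there are not read.

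Genes of the Polycomb machinery and imprinted genes were picked out after the values were seen. Bmi1 encodes a core subunit of Polycomb repressive complex 1, and its member at chr2:18675601-18683400 had a median percentile of 83.7 with heights of 34 to 88. Sfmbt1, which encodes a protein with MBT repeats, had a percentile of 49.3. The paternally expressed genes Peg3 and Usp29 share a member with a percentile of 21.0. Of the solute carriers, Slc22a3 had deposited heights of 25 and 22 in WT VEH and 27 and 25 in WT MET. In RH VEH they were 12 and 13, and in RH MET 24 and 16. The median over all members was 19.0 and 24.0 in WT VEH and 13.0 and 19.0 in RH VEH. The heights at Slc22a3 are therefore not read as a difference between groups.

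The narrowest members lay in arrays of RNA genes. All 4 members of 1000 bp or less were on chromosome 8 between 123575401 and 123620000, inside a cluster of 48 annotated rRNA genes (123538784 to 123622046, GRCm38.p6). Their median percentiles were 75.0, 85.3, 37.7 and 51.9. The members of 1400 and 1800 bp on chromosome 17 each had 7 annotated tRNA genes within 20 kb. Over all members, 3 (0.382%) overlapped an rRNA or tRNA gene itself, against 0.486% of the wider shared regions. Reads of near-identical gene copies may be split or shared between them, so the values in these arrays are uncertain.

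Genotype was compared by asking in how many members the percentiles of the 4 RH and the 4 WT libraries do not overlap. They lay wholly above in 18 members (2.29%), where the background over all 6336 shared regions was 2.29%. They lay wholly below in 19 (2.42%), against a background of 1.96%. Both shares were close to the background, so the counts show nothing about the members. The named examples were chosen by their differences and are descriptions without a test.

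Among members higher in RH was one inside Adamts9, which encodes a secreted metalloprotease. Its percentiles were 9.10 and 21.7 in WT VEH, 19.2 and 28.2 in WT MET, 45.3 and 29.6 in RH VEH, and 35.7 and 31.1 in RH MET. Gucy1a1, a subunit of soluble guanylate cyclase, had a mean of 47.3 over the RH and 25.7 over the WT libraries. A member 80160 bp from the nearest coding gene, Zfp36l1, had a mean of 26.4 against 7.16. A member near Eif4a2 also lay wholly above.

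Among members lower in RH was Sgk1, the serum- and glucocorticoid-regulated kinase. Its percentiles were 72.0 and 50.9 in WT VEH, 61.2 and 50.5 in WT MET, 45.3 and 43.2 in RH VEH, and 44.0 and 39.3 in RH MET. Sorl1, a sorting receptor, had a mean of 20.3 over the RH and 35.3 over the WT libraries. Pcdh15, Emid1, Vgll3 and Lrfn1 completed the 6 largest differences among the members that lay wholly below. At Emid1 the difference in mean percentile of -16.7 was -9.70 without WT VEH 1.

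The tallest member of all was at Mx1, at chr16:97461601-97466800, annotated as a transcribed pseudogene. It was singled out after its values were seen, because the Mx1 promoter drives Cre in all the mice. Its heights were 55 and 87 in WT VEH, 88 and 108 in WT MET, 54 and 99 in RH VEH, and 152 and 129 in RH MET. Divided by each library's median height over the shared regions, it was 2.12 to 2.64 in the WT libraries (mean 2.48 ± 0.246, SD, n = 4) and 3.18 to 4.34 in the RH libraries (3.84 ± 0.494). The genotypes did not overlap on this scale, as in 127 of the 6336 shared regions, and 20 of the 786 members, that lay wholly above in RH. Its percentiles, 88.2 to 95.9 in WT and 99.3 to 100 in RH, make it one of the 18 members that lay wholly above in RH. On the deposited heights the genotypes overlapped. Whether reads from a Cre transgene are placed at this region was not tested.

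**Figure D5:**
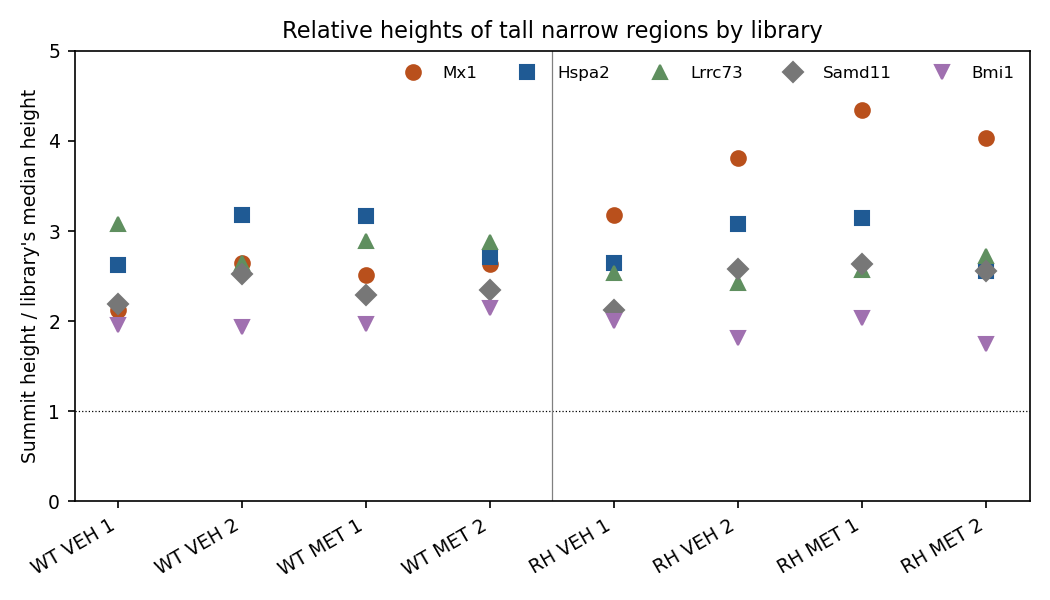
Summit height divided by the library's median height over the 6336 shared regions (vertical axis, linear) for 5 tall members in each of the 8 libraries; the vertical line parts WT from RH and the dotted line marks 1. Mx1 lies at 2.12 to 2.64 in WT and 3.18 to 4.34 in RH, while Hspa2, Lrrc73, Samd11 and Bmi1 overlap between the genotypes.

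Metformin and vehicle were compared in the same way. The percentiles of the 4 MET libraries lay wholly above those of the 4 VEH libraries in 10 members (1.27%), with a background of 1.23%. They lay wholly below in 5 members (0.636%), with a background of 1.33%. On the deposited heights the counts were 100 (12.7%, against 16.4% of all shared regions) and 0 (0%), in libraries whose overall heights also differ by treatment, so that setting cannot be told apart from the library scale.

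Among these non-overlapping members, the largest differences upward were at Arhgap44, Rnf180, Tagln3, Rundc3b, Ppp1r9a and Myo5c. Myo5c, a class V myosin, had percentiles of 62.0 and 69.5 in WT VEH, 70.3 and 69.7 in WT MET, 63.1 and 60.9 in RH VEH, and 77.3 and 83.5 in RH MET. The gap between the groups at Myo5c was small next to its spread within the MET libraries. Downward, the largest difference was at the 1800 bp member on chromosome 17 near tRNA genes, where values are uncertain. Its mean percentile was 10.9 over the MET and 30.6 over the VEH libraries. Trps1, a GATA-type repressor, had 14.9 against 32.1, and Rassf6, a Ras-association domain gene, 8.61 against 25.8.

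The treatment order was opposite in the genotypes in few members. MET lay above VEH in WT and below it in RH in 17 members (2.16%, background 2.30%). The reverse order was seen in 12 (1.53%, background 2.56%). With 2 libraries a group these orders were not tested.

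Covered width, the length of a region under intervals in a library, was tested with limma on log2 values centred on each library's median. No region was called at an adjusted p under 0.05 (Benjamini-Hochberg over 6336 regions) by genotype, treatment or their interaction, so 0 of 786 members were called, with a background of 0%. At an unadjusted p under 0.05 there were 56 members by genotype (7.12%, background 6.41%), 32 by treatment (4.07%, background 4.47%) and 23 for the interaction (2.93%, background 3.79%). The median log2 difference of RH minus WT was 0.118 over the members and 0.0506 over all regions; without centring it was -0.168 and -0.235, so the direction depends on the scaling.

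The smallest p by genotype was at a member outside all listed genes on chromosome 6 (94461001 to 94467600), 32695 bp from Slc25a26. It was covered over 4800 and 4400 bp in WT VEH, 5400 and 6200 bp in WT MET, 2000 and 2200 bp in RH VEH, and 1600 and 1600 bp in RH MET. The genotypes did not overlap, but the limma difference of -1.21 (log2, SE 0.189) had an adjusted p of 0.148 and did not pass. The smallest adjusted p of any member ranged from 0.1 to 0.596 over the alternatives of the limma fit by genotype.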

How the data were processed

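H3K27me3 ChIP-seq was measured in 8 libraries (4 groups of 2); an input library has no interval list here. Per the submitters' processing notes, bcl2fastq 2.20 and BWA 0.7.12 were used with build mm10; the peak caller, its settings and the merging of intervals are steps on which the labels and headers are silent. The authors deposited intervals and summits per library and 1 merged list. The summit height is a score that the authors deposited as whole numbers without a stated unit; read depth is unknown. All edges are multiples of 200 bp; coordinates are printed 1-based.

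The highest summit and the covered width were taken per region and library, and heights were ranked within each library. Genes and starts came from RefSeq (GRCm38.p6): 17492 of 21900 protein-coding genes have a listed start, and 1 autosome has none. Python 3.11.15, pandas 2.3.3, R 4.3.3 and limma 3.58.1 (Benjamini-Hochberg adjustment, group means, threshold 0.05) were used; the limma step was tested on simulated data. The members and lists were chosen with earlier results of these data known. Named by rule were the 12 highest and 6 lowest members at coding genes, members at marker genes, up to 4 per gene group, 3 at each side of the width limit, the 6 largest non-overlapping differences per direction, up to 6 regions called by limma, and 6 anchor genes; not every named member is printed. Alternatives changed the width limit, coverage, height minimum, start distance, scaling, choice of summit, limma settings and the libraries used.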

Additional observations from a re-analysis of the deposited data

Results flagged for a closer look

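Checked were 160 sets of 4 libraries (named members, and the medians over all members, by genotype). A set was flagged when the ratio of gap to range for 1 library was above Dixon's 95% critical value. About 1 in 20 sets of like libraries is flagged by chance, and 17 were flagged here. These sets mix vehicle and metformin libraries, hold bounded percentiles and cover members named partly for extreme values. The 17 flagged sets are therefore not read as an excess over that rate. Among the WT libraries these were the height percentiles of Fam135a (0.983), Emid1 (0.978), Sfmbt1 (0.868), Cdh24 (0.969), Capn13 (0.831), Gucy1a1 (0.868), Col1a2 (0.908), Ido1 (0.855), the rRNA-cluster member nearest to Gas8 (0.906) and Myo5c (0.905). Among the RH libraries they were those of Stau2 (0.911), Fgf12 (0.855), Mx1 (0.932), Capn13 (0.864), Tead4 (0.83), the rRNA-cluster member nearest to Gas8 (0.992) and Sorl1 (0.98). At Emid1 WT VEH 1 was at 74.2 and the other WT libraries at 46.0 to 46.6; at Col1a2 it was at 0.868 and the others at 24.2 to 26.5. WT VEH 1 and RH VEH 1 are the libraries with the fewest intervals (12009 and 11620).

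At Tead4 and Nsmce3 metformin and vehicle were ordered oppositely in the genotypes: the treatment difference in RH minus that in WT was -4.72 percentile points at Tead4 and -2.93 at Nsmce3. Both lie among the lowest members, and this difference between the genotypes was not tested.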

How the results depend on the processing

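The number of members follows the rule: 93 at a width under 5000 bp, 1497 under 10000 bp, 295 where each library covers at least 50% of the region and 263 with summit heights of 15 or more, against 786. Leaving out 1 library gave 788 to 887. Starts fell in 43 members under 5000 bp (46.2%), and in 396 to 439 with a library left out (chosen after seeing the data). On other scales the group medians for WT VEH, WT MET, RH VEH and RH MET were 0.729, 0.725, 0.748 and 0.717 (height over the library's median), 21.5, 27.5, 16.0 and 24.0 (as deposited) and 39.4, 39.7, 38.8 and 40.6 (percentile of the summit nearest to the middle). Non-overlapping members by genotype (above, then below) were 0 and 19 on deposited heights (0% and 1.63% of all shared regions); by treatment they were 100 and 0 on deposited heights (16.4% and 0% of all) and 6 and 15 over the library's median (1.18% and 2.56% of all). Without 1 library they were 23 to 32 above and 31 to 40 below by genotype, and 20 to 28 above and 12 to 20 below by treatment, since fewer libraries must be separated; the shares of all shared regions rose too, to 3.60% to 4.55% and 3.14% to 3.95% by genotype, and 2.45% to 3.19% and 2.48% to 3.24% by treatment. Of 24 differences at named members, all kept their direction without any 1 library, but 3 shrank by over 1.5 times: Emid1 (-9.70 without WT VEH 1, from -16.7), Slc8a1 (-6.99 without WT MET 2) and the member near 4930519L02Rik (-4.54 without WT VEH 1); on deposited heights Slc8a1 reversed from -12.0 to 1.25 and the member near 4930519L02Rik from -8.36 to 4.25. The cause was not tested.

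The limma fits called 0 to 1 regions when 1 library was left out: without WT VEH 2, 1 wider by genotype, 1 wider by treatment and 1 narrower for the interaction, and without WT MET 1, 1 wider for the interaction. With the replicate number as a block, 0 regions were called in each contrast. The deviations of same-numbered libraries from their group means correlated at -0.0294 to 0.113 over the regions. These are widths centred per library, so the check cannot show whether libraries with the same number were handled together. Read depth is unknown, and 2 libraries a group limit the precision.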
